A study of Canis lupus familiaris with 11 samples.

Results

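The genes described here are 10 immediate early genes that lie outside the AP-1 family, namely EGR1, KLF6, KLF10, NR4A1, CSRNP1, MAFK, IER2, IER3, IER5 and ZFP36. They were found by gene symbol among the 26178 genes of the deposited table, and all 10 were also among the 13560 genes that passed the filter on low counts. The list was chosen on earlier results from the same libraries, in which several of these genes were lower in compressed than in control wild-type cells. That comparison is therefore given below as a description of the libraries, with no test.

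RNA was sequenced from the canine kidney epithelial line MDCKII, which grows as a polarised sheet, in a study that asked how an epithelium responds to lateral compression and what lamin A contributes. Wild-type (WT) cells and LMNA KO cells derived from them were grown for 3 to 4 d to a confluent monolayer in medium with serum. LMNA encodes lamins A and C, which line the inside of the nuclear envelope. The control groups held 3 WT and 2 KO libraries from sheets that were not compressed. The compressed groups held 3 WT and 3 KO libraries, taken after lateral compression and 2 h of recovery. The sources used here do not state how compression was applied, how the KO cells were made or whether they are 1 clone. The design text of the series describes WT cells at other time points, and the sample labels were followed instead. No sham handling or matched recovery is named for the controls, so an effect of compression cannot be told apart from one of handling or of time. The labels also leave unsaid whether replicates were separate cultures, so p-values measure only the spread between these libraries, which may be technical.

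Immediate early genes are transcribed within minutes of a stimulus without new protein synthesis, mostly from promoters that serum response factor, ternary complex factors and CREB occupy beforehand. Growth factor signals through the ERK kinase cascade are the classical trigger, and stretch, wounding and shear act on many of the same promoters in epithelia. Their RNAs are short-lived, so a level measured hours later reflects transcription and decay near that time. Many of the products are transcription factors or feedback regulators.

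The libraries held 10420214 to 17999623 counts, with 12715099 to 15895296 in WT control, 10420214 to 13039463 in WT compressed, 17588426 to 17999623 in KO control and 11867396 to 16371946 in KO compressed cells. LMNA RNA, in TMM-scaled CPM (counts of a gene relative to the library's effective total), was 679 to 1208 in WT control and 751 to 841 in WT compressed libraries, against 38.5 and 51.8 in KO control and 25.5 to 43.6 in KO compressed libraries. The log2 fold change of KO against WT cells was -4.38 ± 0.30 (SE) in controls, with an adjusted p of 1.57e-05, and -4.53 ± 0.26 in compressed cells, with an adjusted p of 1.19e-06 (edgeR's quasi-likelihood test, Benjamini-Hochberg adjusted). All 8 epithelial markers were detected, summing to 3338 to 5660 CPM across the libraries, with KRT8 the highest. CDH16 was low, with group means of 0.357 to 3.51 CPM. The fibroblast and smooth muscle list of 10 markers summed to 22.9 to 31.99 CPM with DCN and LUM at 0, the 6 endothelial markers to at most 4.33 CPM with EMCN at 0, and the 7 immune markers to 5.14 to 12.5 CPM with PTPRC and CD3E at 0. MYH11 led the fibroblast and smooth muscle list, with group means of 20.6 to 26.1 CPM. KDR led the endothelial list and CD14 the immune list. Mitochondrially encoded genes took 2.61% to 3.84% of counts in WT control and 2.07% to 2.22% in WT compressed libraries, and 2.61% to 2.65% in KO control and 2.90% to 4.74% in KO compressed libraries. This share was lower after compression in WT cells and higher in KO cells, and its part in the values below was not tested. WT control replicate 1 stood apart from the other WT controls, with a chi-square per gene of 77.3 and 48.2 against them and 15.1 between those 2. The KO compressed libraries were also uneven, at 69.3 between replicates 1 and 2, 37.0 between 1 and 3 and 57.9 between 2 and 3. The KO controls stood at 9.05 and the pairs of WT compressed libraries at 6.09 to 22.9.

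At rest the 10 genes covered a wide range of levels per unit of gene length. In the authors' FPKM, which divide by the length of the gene model, WT control means were 199 for IER3, 95.5 for IER2, 56.6 for KLF6, 40.7 for MAFK and 30.1 for CSRNP1. KLF10 averaged 17.5, IER5 16.7, EGR1 6.18, ZFP36 5.54 and NR4A1 2.40 FPKM, so the last 3 lay below the median of all genes tested, 10.95 FPKM. From IER3 down to MAFK, each gene's libraries overlapped those of the next. CSRNP1 (28.3, 30.3 and 31.8 FPKM) lay below every MAFK library, the lowest of which was 37.3 FPKM. KLF10 and IER5 overlapped each other, as did EGR1 and ZFP36, and NR4A1 (1.47, 2.58 and 3.15 FPKM) lay below every ZFP36 library, which held 4.53 or more. KO control cells kept IER3 at the top with 109 FPKM and NR4A1 at the bottom with 1.54 FPKM. KLF10, at 22.6 FPKM, stood above CSRNP1, at 20.3 FPKM, in the KO means, although their library ranges overlapped.

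**Figure D1:**
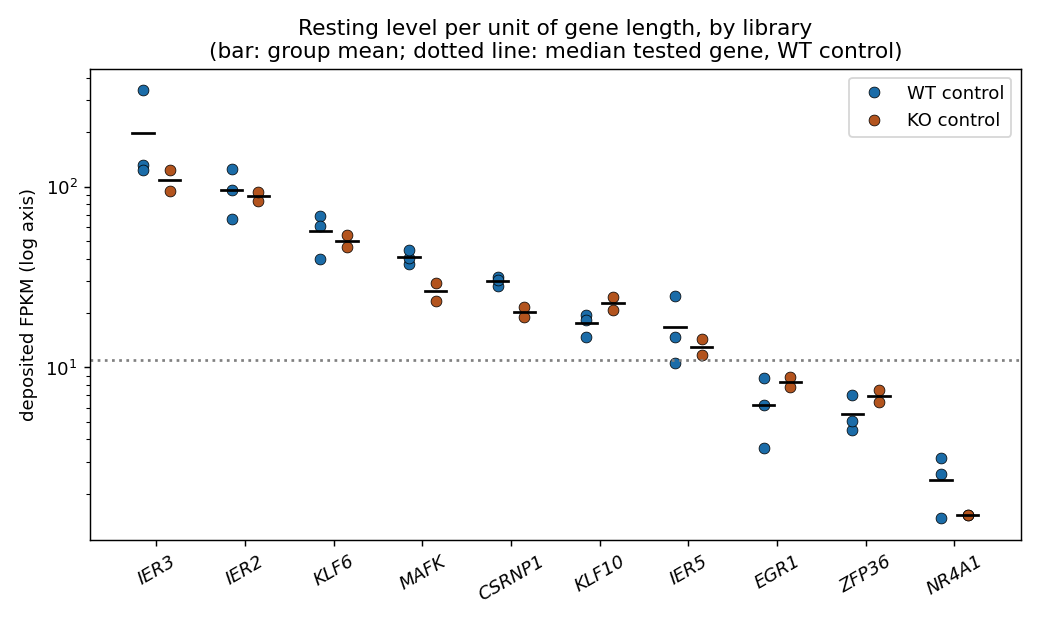
Deposited FPKM (log axis) of each gene in the WT control and KO control libraries, with a point per library, a bar for each group mean and a dotted line at the WT control median of all genes tested. IER3 led in both genotypes, at 199 and 109 FPKM, and NR4A1 was lowest, at 2.40 and 1.54 FPKM.

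These per-length levels rest on the gene models of the deposited table. The model lengths were whole multiples of 3 for NR4A1, IER2, IER3, IER5, KLF10 and MAFK, and not for EGR1, KLF6, CSRNP1 and ZFP36. Coding length alone is such a multiple, but other lengths can be too. It is therefore not known which of the former models hold coding sequence alone. Coordinates refer to CanFam3.1. EGR1 lies on chromosome 11 (26045602 to 26050479, plus strand), NR4A1 on chromosome 27 (2947619 to 2955829, minus strand), CSRNP1 on chromosome 23 (8817053 to 8821552, minus strand) and MAFK on chromosome 6 (15424095 to 15425549, minus strand). IER3, on chromosome 12 (529738 to 530220, minus strand), had a model of 483 bases, and IER2, on chromosome 20 (49072234 to 49072902, minus strand), one of 669 bases. None of these 6 overlapped another gene of the table, nor did KLF6 on chromosome 2, KLF10 on chromosome 13 or ZFP36 on chromosome 1. IER5, on chromosome 7 (14360627 to 14556927, plus strand), was modelled over 196 kb with only 873 bases of exon. That span held 4 other genes, 1 of them on the opposite strand, so its reads may be shared with neighbours and its values are uncertain.

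In WT cells all 10 genes had a lower mean after compression and 2 h of recovery than in controls. The largest differences were those of NR4A1, IER3, IER5, MAFK and CSRNP1, whose compressed means were 0.134, 0.224, 0.325, 0.329 and 0.362 times the control means. KLF6 and IER2 stood at 0.610 and 0.617 times control, ZFP36 at 0.734, EGR1 at 0.793 and KLF10 at 0.905. For 6 of the 10 genes every compressed library lay below every control library, where 20.8% of all genes tested did so. Since the genes were chosen with these values in view, nothing is read from that count. In bulk RNA, fewer cells carrying a transcript and less of it per cell cannot be told apart.

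Among the zinc finger factors, only KLF6 separated the WT groups. EGR1, which binds GC-rich promoters and is among the first genes to answer serum, stood at 15.0, 36.6 and 26.0 CPM in the 3 WT control libraries and at 18.8, 19.99 and 22.7 CPM in the 3 WT compressed libraries. KLF6, a Krüppel-like factor of injured and repairing epithelia, stood at 45.5, 77.8 and 69.4 CPM in control and 40.2, 43.4 and 33.8 CPM in compressed libraries. KLF10, a Krüppel-like factor first found as an early target of TGF-beta, stood at 28.4, 37.1 and 35.6 CPM in control and 24.1, 28.3 and 39.2 CPM in compressed libraries. The EGR1 controls spanned a 2.44-fold range that enclosed all its compressed libraries, and the highest KLF10 library of the 6 was a compressed one. KLF6 separated the groups narrowly, by 43.4 against 45.5 CPM. The log2 fold changes were -0.34 ± 0.30 (SE) for EGR1, -0.71 ± 0.27 for KLF6 and -0.15 ± 0.25 for KLF10.

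NR4A1, CSRNP1 and MAFK each separated the WT groups. NR4A1, the orphan nuclear receptor Nur77, stood at 6.77, 3.82 and 8.31 CPM in WT control libraries and at 0.538, 1.19 and 0.807 CPM after compression. CSRNP1, a cysteine- and serine-rich nuclear protein that activates transcription, stood at 58.0, 51.2 and 55.6 CPM in control and at 16.4, 24.6 and 18.8 CPM in compressed libraries. MAFK, a small MAF protein that has no activation domain and binds DNA with partners such as NRF2 and BACH1, stood at 17.7, 19.1 and 21.1 CPM and at 5.997, 6.78 and 6.26 CPM. None of the 3 genes had overlapping groups. CSRNP1 and MAFK were also the most even in WT controls, with standard deviations of 6.27% and 8.89% of their means. The log2 fold changes were -2.89 ± 0.55 for NR4A1, -1.46 ± 0.20 for CSRNP1 and -1.60 ± 0.26 for MAFK. The compressed NR4A1 values rested on 7, 14 and 8 reads, with exact Poisson 95% intervals of 2.81 to 14.4, 7.65 to 23.5 and 3.45 to 15.8 reads that cover counting error only. On log2(FPKM + 1) the NR4A1 value was -1.34, because the pseudocount is large beside its level.

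The IER genes share the way they were found, as fast-responding transcripts. IER3, a stress-induced regulator of survival and ERK signalling, stood at 166, 63.1 and 60.3 CPM in WT control and at 22.6, 27.6 and 14.6 CPM in WT compressed libraries. IER2, a small nuclear protein, stood at 44.6, 83.7 and 64.5 CPM and at 36.3, 47.1 and 35.5 CPM. IER5, which activates heat shock factor 1 through the phosphatase PP2A, stood at 9.30, 21.6 and 12.9 CPM and at 3.92, 9.23 and 1.11 CPM. IER3 had no overlap, IER2 overlapped through 1 library of each group, and IER5 separated by the smallest of margins. The log2 fold changes were -2.16 ± 0.50 for IER3, -0.70 ± 0.27 for IER2 and -1.61 ± 0.61 for IER5. WT control replicate 1 held more IER3 than the other 2 controls together, and without it the IER3 value was -1.51. IER5 was at -2.50 when WT compressed replicate 2 was left out and at -1.16 when replicate 3 was, whose 11 reads have an exact Poisson 95% interval of 5.49 to 19.7 reads.

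ZFP36, or tristetraprolin, binds AU-rich elements in cytokine and growth factor mRNAs and speeds their decay. It stood at 11.5, 17.7 and 12.9 CPM in WT control and at 8.15, 12.4 and 10.3 CPM in WT compressed libraries. The groups overlapped through 1 compressed library, and the log2 fold change was -0.45 ± 0.28. Over the 10 genes the median log2 fold change in WT cells was -1.09, beside -0.020 over all genes tested, where 51.5% of values were negative. The list was chosen with these values in view, so nothing is read from the gap between those medians.

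**Figure D2:**
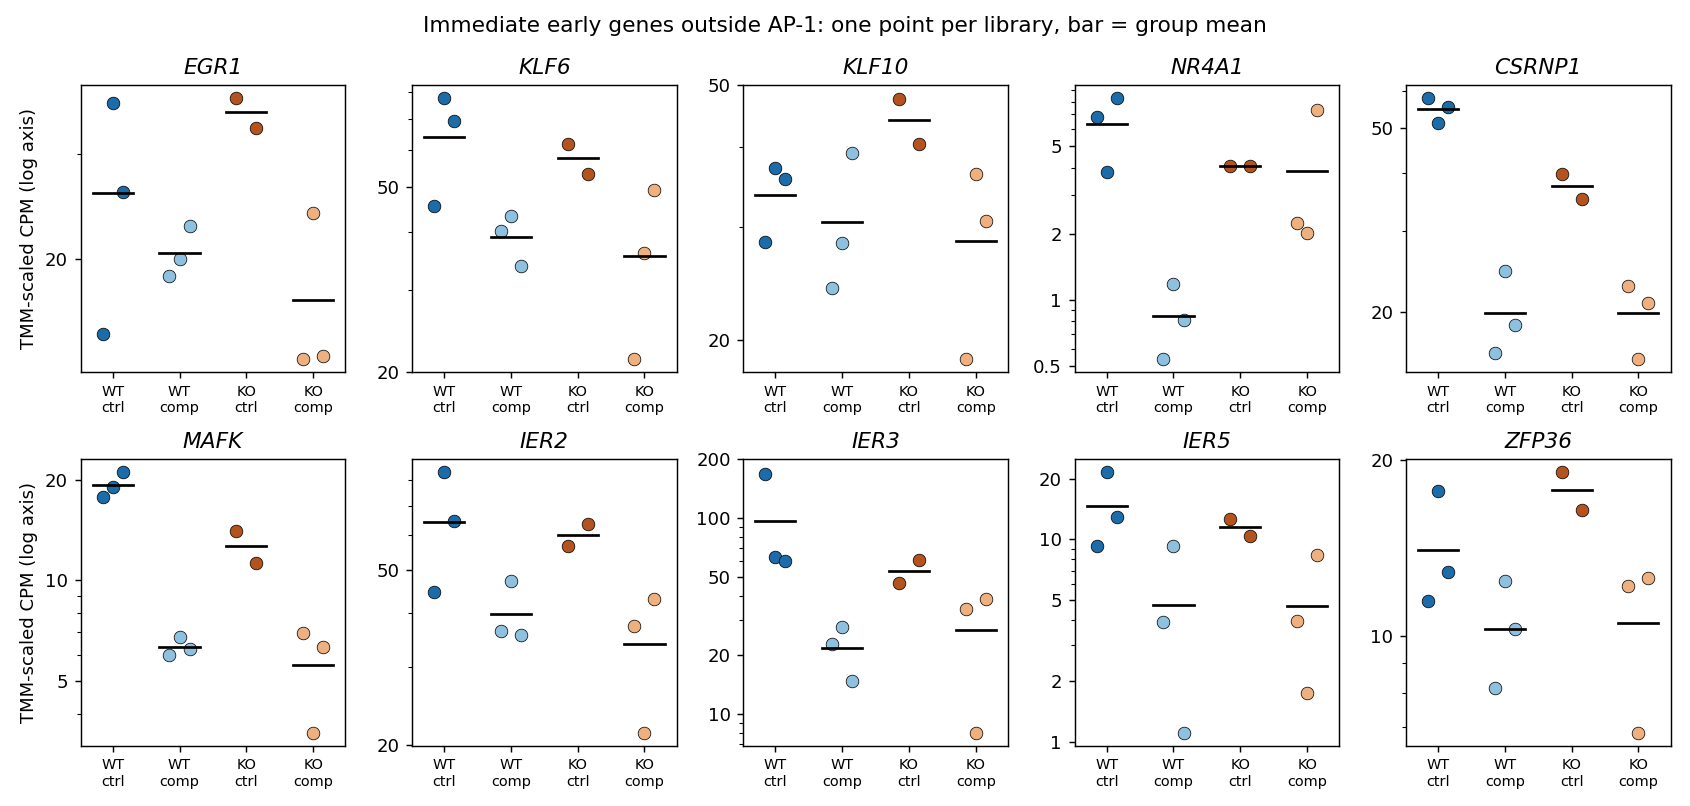
TMM-scaled CPM (log axis) of each gene in every library, by group (ctrl, control; comp, compressed), with a bar at each group mean. CSRNP1 and MAFK separated control from compressed libraries in both genotypes, whereas NR4A1 did so in WT cells and overlapped in KO cells, where its libraries held 2.02 to 7.30 CPM after compression.

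In KO cells 9 of the 10 genes, all but NR4A1, had every compressed library below every control library, where 14.0% of all genes tested did so. The largest differences were those of IER5, MAFK and EGR1, with compressed means 0.407, 0.441 and 0.485 times the control means, and NR4A1 stood at 0.945 times control. No gene of the 10 passed the test. At an adjusted p of 0.05 edgeR's quasi-likelihood test, Benjamini-Hochberg adjusted, called 0 of all 13560 genes (0%), and the smallest adjusted p of any gene was 0.306. At an unadjusted p under 0.05 edgeR gave 828 genes of the table and 7 of the 10, all lower, where 2.70% of all genes tested were lower at that level. Those 7 were EGR1, KLF6, KLF10, CSRNP1, MAFK, IER2 and ZFP36. DESeq2 and limma on log2(FPKM + 1) each called 1 gene of the table and limma on log2(FPKM + 0.1) called 0, none of them among the 10.

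The zinc finger factors were all lower in the KO compressed libraries. EGR1 stood at 37.3 and 33.2 CPM in KO control libraries and at 13.6, 23.9 and 13.7 CPM in KO compressed libraries. KLF6 stood at 62.0 and 53.3 CPM and at 21.4, 36.1 and 49.3 CPM, and KLF10 at 47.6 and 40.4 CPM and at 18.7, 36.3 and 30.6 CPM. Both genes had their widest group among the compressed libraries, where the highest KLF6 value was 2.31-fold the lowest. The log2 fold changes were -1.05 ± 0.33 (95% interval -1.76 to -0.34) for EGR1, -0.69 ± 0.30 (-1.34 to -0.052) for KLF6 and -0.63 ± 0.28 (-1.22 to -0.030) for KLF10. Each had an adjusted p of 0.773 by edgeR with Benjamini-Hochberg adjustment, as had the other genes apart from NR4A1.

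CSRNP1 and MAFK were again among the genes whose groups lay well apart. CSRNP1 stood at 39.8 and 35.1 CPM in KO control and at 22.8, 15.9 and 21.0 CPM in KO compressed libraries, a log2 fold change of -0.91 ± 0.22 (-1.38 to -0.44). MAFK stood at 14.1 and 11.2 CPM and at 6.94, 3.51 and 6.31 CPM, a log2 fold change of -1.17 ± 0.28 (-1.78 to -0.57). The 2 genes had the smallest unadjusted p-values of the 10 by edgeR, 0.00107 and 0.000978, with adjusted p-values of 0.773. NR4A1 stood at 4.08 and 4.07 CPM in control and 2.24, 2.02 and 7.30 CPM in compressed libraries. Its log2 fold change was -0.064 ± 0.53 (-1.21 to 1.08), with an edgeR adjusted p of 0.984. Replicate 3 of the KO compressed cells, at 7.30 CPM, set that value, and without it NR4A1 was at -0.93.

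The IER genes and ZFP36 were lower in the KO compressed libraries as well, with wide spreads. IER3 stood at 46.3 and 60.5 CPM in KO control and at 34.0, 7.98 and 38.3 CPM in KO compressed libraries. IER2 stood at 56.7 and 63.7 CPM and at 37.3, 21.3 and 42.9 CPM, and IER5 at 12.7 and 10.4 CPM and at 3.96, 1.75 and 8.35 CPM. In all 3 genes replicate 2 was the lowest compressed library and replicate 3 the highest. ZFP36 stood at 19.1 and 16.5 CPM and at 12.2, 6.84 and 12.6 CPM, with the same library lowest. The log2 fold changes were -0.99 ± 0.53 (-2.13 to 0.15) for IER3, -0.83 ± 0.29 (-1.46 to -0.20) for IER2, -1.28 ± 0.65 (-2.67 to 0.12) for IER5 and -0.75 ± 0.30 (-1.40 to -0.11) for ZFP36. Without KO compressed replicate 2 the IER3 value was -0.56, and without replicate 3 the IER5 value was -2.00. The KLF6 and KLF10 values were -0.43 and -0.40 without replicate 1. The median log2 fold change of the 10 genes in KO cells was -0.87, beside -0.0036 over all genes tested.

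Whether the response to compression differed between genotypes was asked with the interaction of genotype and compression, the KO log2 fold change minus the WT one. No gene of the 10 passed, and edgeR called 0 of all 13560 genes (0%), with a smallest adjusted p of 0.939. At an unadjusted p under 0.05 edgeR gave 1 of the 10, NR4A1, and 650 genes of the table, 4.79% of all genes tested. DESeq2 and both limma fits also called 0 genes. The NR4A1 difference was 2.83 ± 0.78 (95% interval 1.16 to 4.51) with an edgeR adjusted p of 0.939, and adjusted p-values ran from 0.128 to 1 over all alternatives. It uses the WT libraries that brought NR4A1 onto the list, so it is not independent of that choice.

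For the other 9 genes the interval of the difference included 0. IER3 had a difference of 1.17 (-0.41 to 2.74), CSRNP1 of 0.55 (-0.092 to 1.20), MAFK of 0.43 (-0.39 to 1.26) and IER5 of 0.33 (-1.58 to 2.25), the positive sign meaning a smaller decrease in KO cells. EGR1 had a difference of -0.71 (-1.67 to 0.25), KLF10 of -0.48 (-1.29 to 0.33), ZFP36 of -0.30 (-1.18 to 0.58) and IER2 of -0.13 (-0.98 to 0.72), the sign meaning a larger decrease in KO cells. KLF6 had nearly equal values in the 2 genotypes, with a difference of 0.019 (-0.85 to 0.89). Each of these intervals reached at least 0.89 on the log2 scale in some direction, so like values do not show like responses. IER3 moved to 0.52 and EGR1 to -0.44 without WT control replicate 1, MAFK to 0.25 and KLF10 to -0.25 without KO compressed replicate 1, and ZFP36 to -0.076 without KO compressed replicate 2. IER2, IER5 and KLF6 changed sign when 1 library or another was left out. Without KO compressed replicate 2, edgeR gave 2272 genes and 5 of the 10 at an unadjusted p under 0.05 and still called 0.

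**Figure D3:**
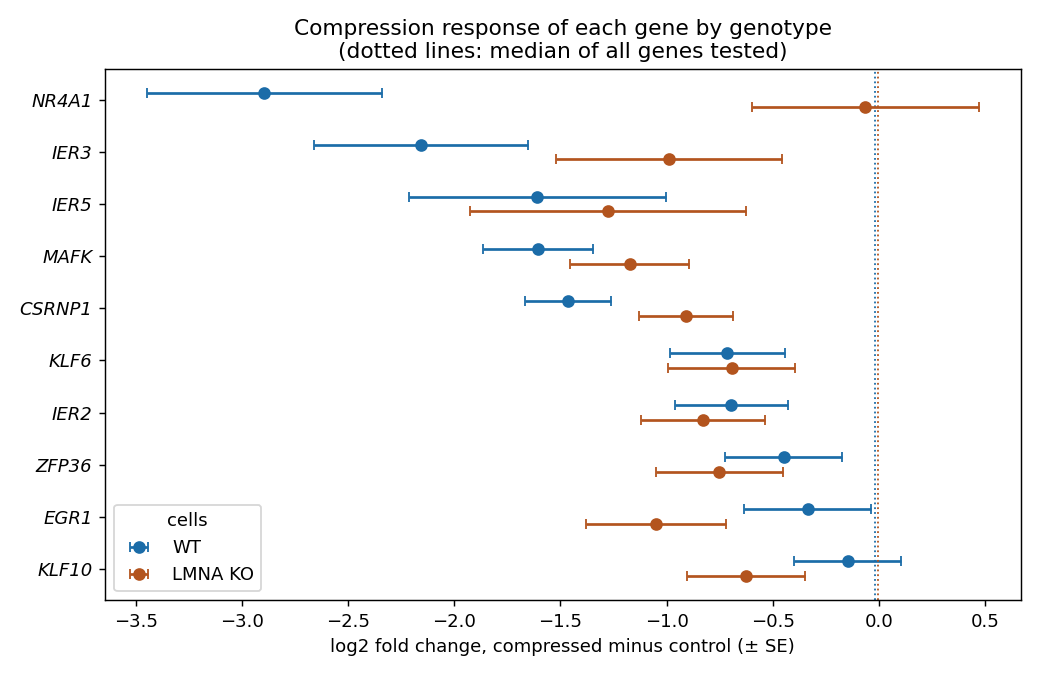
Log2 fold change of each gene between compressed and control libraries (x axis, with SE bars) in WT and KO cells, and dotted lines at the median of all genes tested. NR4A1 lay at -2.89 in WT and -0.064 in KO cells, and the SE bars of KLF6, KLF10, IER2, IER5, MAFK and ZFP36 overlapped between genotypes.

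Without compression, CSRNP1 and MAFK were the genes with lower levels in every KO library. No gene of the 10 was called among the 46 genes (0.339%) that edgeR called between KO and WT control cells. At an unadjusted p under 0.05 edgeR gave those 2 of the 10 as lower in KO cells, where 3.20% of all genes tested were. CSRNP1 stood at 37.4 ± 3.31 CPM (SD, n = 2) in KO control against 54.9 ± 3.44 CPM (SD, n = 3) in WT control cells, a log2 fold change of -0.55 ± 0.22 (SE) with an edgeR adjusted p of 0.584. MAFK stood at 12.7 ± 2.02 against 19.3 ± 1.72 CPM, a log2 fold change of -0.61 ± 0.28 with an edgeR adjusted p of 0.640. These values use the WT controls on which the list was chosen, and a choice for high WT controls favours a lower KO value. Of all genes tested, 15.0% had every KO library below every WT library, as these 2 did. KLF10 had every KO library above every WT library, as 16.9% of all genes did. KLF10 averaged 44.0 ± 5.07 against 33.7 ± 4.63 CPM, a log2 fold change of 0.38 ± 0.28.

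The other 7 genes overlapped between genotypes at rest. EGR1 and ZFP36 had positive values of 0.45 ± 0.33 and 0.34 ± 0.30, or 0.17 and 0.22 without WT control replicate 1. IER3 had a value of -0.85 ± 0.55, reduced to -0.21 when WT control replicate 1 was left out, and NR4A1 one of -0.63 ± 0.54. IER5 at -0.34 ± 0.65, KLF6 at -0.16 ± 0.30 and IER2 at -0.094 ± 0.29 had values smaller than their errors. IER2, IER5 and KLF6 each had a positive value without WT control replicate 2.

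After compression NR4A1 was the only gene of the 10 whose KO and WT libraries did not overlap, and it did not pass the test. NR4A1 stood at 3.85 ± 2.99 CPM in KO compressed against 0.844 ± 0.325 CPM in WT compressed libraries (SD, n = 3 each), and every KO library lay above every WT library, as in 7.92% of all genes tested. The log2 fold change was 2.20 ± 0.55 (95% interval 1.01 to 3.39) with an edgeR adjusted p of 0.104, and it was the only gene of the 10 at an unadjusted p under 0.05, a level that 11.3% of all genes tested reached. Of the 107 genes (0.789%) that edgeR called in this comparison, 0 were among the 10, while DESeq2 called NR4A1 with an adjusted p of 0.00827. Over all alternatives the adjusted p ran from 0.00827 to 0.359, and edgeR also called NR4A1 with no filter on low counts (0.0196) and without KO compressed replicate 2 (0.0310). Without KO compressed replicate 3 the log2 fold change was 1.33. Like the difference between responses, this comparison uses the WT compressed libraries on which the list was chosen, and a choice for low WT compressed libraries favours a higher KO value. The other 9 genes had values from -0.26 (EGR1) to 0.31 (IER3), all with overlapping libraries, and CSRNP1 averaged 19.9 CPM in each genotype.

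The libraries did not rank alike for all 10 genes. WT control replicate 1 was the lowest WT control for 7 genes, EGR1, IER2, IER5, KLF6, KLF10, MAFK and ZFP36, and the highest for CSRNP1 and IER3. WT compressed replicate 2 was the highest compressed WT library for 8 genes, all but EGR1 and KLF10. KO compressed replicate 2 was the lowest of its group for 7 genes and the highest for EGR1 and KLF10. EGR1 and KLF10 were thus highest in WT compressed replicate 3 and in KO compressed replicate 2, where no other gene of the 10 was. Leaving out WT control replicate 1 raised the number of genes with no overlap in WT cells from 6 to 9. No overlap is easier to reach with fewer libraries, and the share over all genes was not computed there. Nothing is therefore read from that rise.

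**Figure D4:**
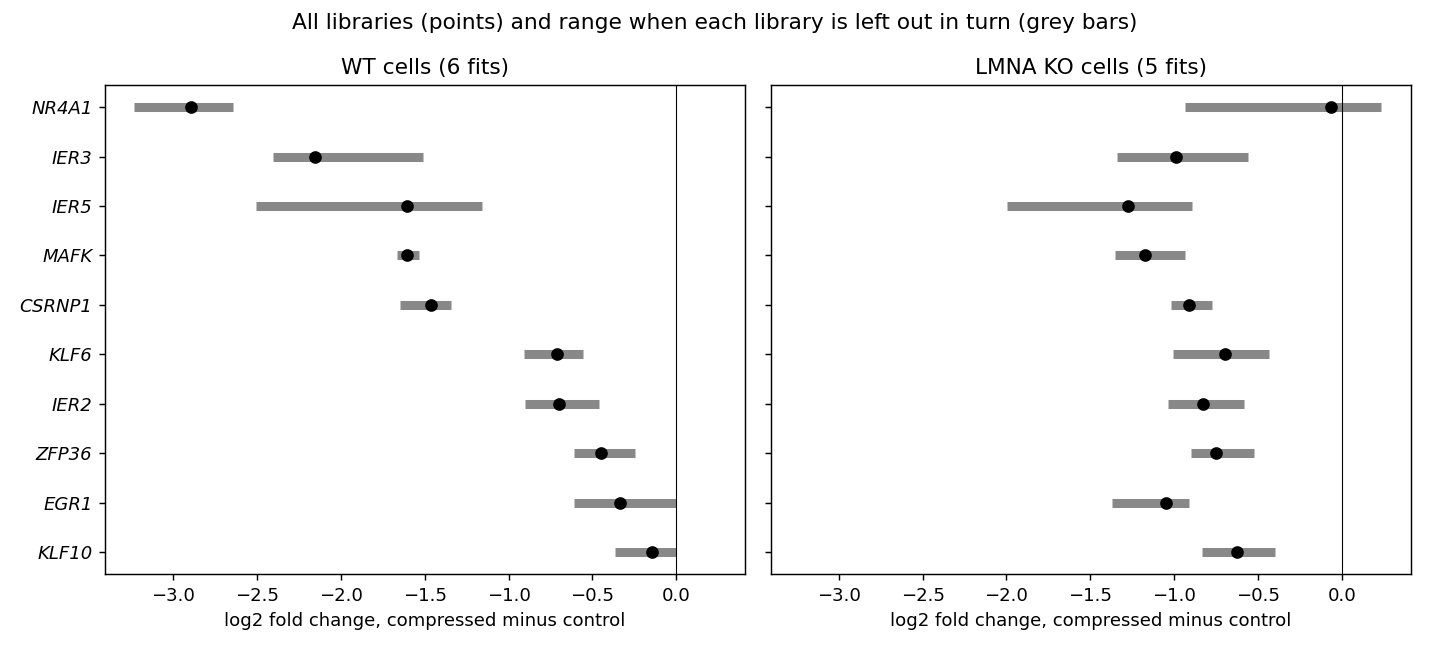
Log2 fold change of each gene between compressed and control libraries with all libraries (points) and the range over fits that each leave out 1 library (grey bars), in WT cells (6 fits) and KO cells (5 fits). MAFK kept between -1.66 and -1.53 in WT cells, EGR1 ran from -0.61 to -0.0033 there, and NR4A1 crossed 0 in KO cells.

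The 10 genes differed in how far a single library moved their values. CSRNP1 lay between -1.64 and -1.34 and MAFK between -1.66 and -1.53 over the 6 WT fits that each left out a library, and NR4A1 between -3.23 and -2.64. EGR1 ran from -0.61 without WT control replicate 1 to -0.0033 without WT control replicate 2. KLF10 ran from -0.37 with WT compressed replicate 3 left out to -0.0002 with replicate 1 left out. In KO cells MAFK lay between -1.35 and -0.94, CSRNP1 between -1.02 and -0.77 and EGR1 between -1.37 and -0.91. NR4A1 ran from -0.93 to 0.24 there and changed sign.

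The neighbourhood of these genes was described with 7 lists, holding 105 other genes of which 94 were tested, which were also drawn up with earlier results of these data known. Between WT compressed and WT control libraries edgeR with Benjamini-Hochberg adjustment called 17 of the 94, with adjusted p-values of 0.0410 to 0.0475. Of these, 15 were lower and 2 higher after compression. Over all genes 6.25% were called, 2.40% lower and 3.85% higher. Because results from these libraries were known when the lists were drawn up, nothing is read from how the 17 compare with that share. These calls were fragile. The count was again 17 without WT control replicate 1 and was 0 without each of the other 5 WT libraries, and it was 28 with DESeq2 and 0 with limma. In KO cells edgeR called 0 of the 94, and DESeq2 and limma also called 0. At an unadjusted p under 0.05 edgeR gave 19 lower and 2 higher, a level that 6.11% of all genes tested reached. For the interaction of genotype and compression edgeR called 0 of the 94. It gave 7 at an unadjusted p under 0.05, all positive, a level that 4.79% of all genes tested reached. A WT call beside an uncalled KO value below therefore does not show that the genotypes responded differently.

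Of the AP-1 family, whose FOS and JUN proteins are the best known immediate early products, 2 of 9 tested genes fell in WT cells and 0 rose. FOS averaged 35.2 CPM in WT compressed against 80.6 CPM in WT control libraries, a log2 fold change of -1.20 ± 0.18 (edgeR adjusted p 0.0410), and FOSL1 fell by 1.34 ± 0.30. In KO cells FOS had a value of -0.91 ± 0.20 and FOSL1 one of -1.37 ± 0.33, neither of which passed. The family's median was -1.22 in WT and -0.52 in KO cells. Among the other immediate early genes 4 of 15 fell in WT cells, namely SNAI1 (-1.74 ± 0.28), PLK2 (-1.61 ± 0.43), IER5L (-1.21 ± 0.31) and CYR61 (-0.85 ± 0.22), and the median was -0.77. Without WT control replicate 1 the PLK2 value was -0.80. SNAI1 is a repressor of E-cadherin, PLK2 a polo-like kinase, IER5L a relative of IER5 and CYR61 a matricellular protein. Those 4 genes had KO values of -0.72, -0.36, -0.26 and -0.52, none of which passed, and the KO median of the list was -0.25.

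None of the NR4A, EGR, CSRNP or ZFP36 paralogs passed the edgeR test in either genotype. NR4A2, the close relative of NR4A1, stood at 21.8, 9.33 and 14.2 CPM in WT control and at 7.07, 8.47 and 10.5 CPM in WT compressed libraries, with a log2 fold change of -0.80 ± 0.29 (edgeR adjusted p 0.0875). The WT value was -0.45 without WT control replicate 1, and in KO cells the NR4A2 value was -0.12 ± 0.32. EGR2 held at most 20 reads in any library, with values of -1.46 ± 0.90 in WT and -0.80 ± 0.90 in KO cells. CSRNP2 had values of -0.33 ± 0.35 and 0.15 ± 0.40, and EGR3, EGR4 and CSRNP3 were too low to be tested. ZFP36L1, a relative of ZFP36 with the same RNA-binding fingers, had values of -0.94 ± 0.41 in WT and -0.99 ± 0.45 in KO cells, and ZFP36L2 values of -0.40 ± 0.18 and 0.034 ± 0.20, the latter being -0.045 when libraries were scaled by size alone.

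The other small MAF genes did pass in WT cells. MAFF stood at 60.6, 43.1 and 50.7 CPM in WT control and 18.0, 22.8 and 26.0 CPM in WT compressed libraries, a log2 fold change of -1.21 ± 0.27 (edgeR adjusted p 0.0410). MAFG stood at 12.8, 21.5 and 19.6 CPM and at 7.84, 10.2 and 4.54 CPM, a log2 fold change of -1.25 ± 0.30 (edgeR adjusted p 0.0428). Both had every WT compressed library below every control library, as 20.8% of all genes tested did. In KO cells MAFF had a value of -0.58 ± 0.29 and MAFG one of -0.97 ± 0.33, each with an edgeR adjusted p of 0.773. Their partner NFE2L2, which encodes NRF2, rose in WT cells from 160 to 249 CPM, by 0.64 ± 0.16 (edgeR adjusted p 0.0435), and had a KO value of 0.45 ± 0.18 that did not pass. BACH1, the repressor that competes for the same partners, had values of 0.26 ± 0.14 and 0.11 ± 0.15. Of 14 targets of NRF2 and small MAF dimers, 1 was called in WT cells, TXN, or thioredoxin, higher by 1.63 ± 0.38, and 2 loci carry that symbol, so its counts are uncertain. The median of that list was -0.14 in WT and -0.11 in KO cells.

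Regulators above and below the 10 genes held 7 of the WT calls, all lower. ERK feedback genes, among them phosphatases and Sprouty proteins that dampen the cascade, had 3 of 15 lower in WT cells. Those were SPRED3 (-1.98 ± 0.53), PHLDA1 (-1.73 ± 0.34) and SPRY2 (-0.91 ± 0.22). SPRED3 was low, with means of 0.812 CPM in WT compressed and 3.28 CPM in WT control libraries. The median of the list was -0.85 in WT and -0.70 in KO cells. The kinases of the ERK cascade and the factors that occupy immediate early promoters had 1 of 20 lower, MKL1 (-0.65 ± 0.18), a coactivator of serum response factor. The next smallest p-values of that list belonged to the kinase MAP2K2, at -0.56 ± 0.18 (edgeR adjusted p 0.0650), to ATF1, a CREB relative, higher at 0.58 ± 0.20 (0.0781), and to SRF, at -0.53 ± 0.19 (0.0847), and none of the 3 passed. The median of that list was -0.16 in WT and -0.15 in KO cells. Among AU-rich mRNAs that ZFP36 binds, 3 of 7 tested fell in WT cells. The cytokine CSF2 had a value of -2.75 ± 0.71, PTGS2, which encodes cyclooxygenase-2, one of -2.49 ± 0.61 and the cytokine LIF one of -1.91 ± 0.34. In KO cells CSF2 stood at 0.19 ± 0.75, PTGS2 at -0.20 ± 0.64 and LIF at -0.85 ± 0.36, and none passed. KO compressed replicate 1 held 29.7 CPM of CSF2 against 2.89 and 4.46 CPM in the other 2 libraries, and without it CSF2 was at -1.54 and PTGS2 at -0.72. The WT controls of PTGS2 were uneven, at 4622, 477 and 1086 CPM in replicates 1 to 3, and without replicate 1 its WT value was -1.09.

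**Figure D5:**
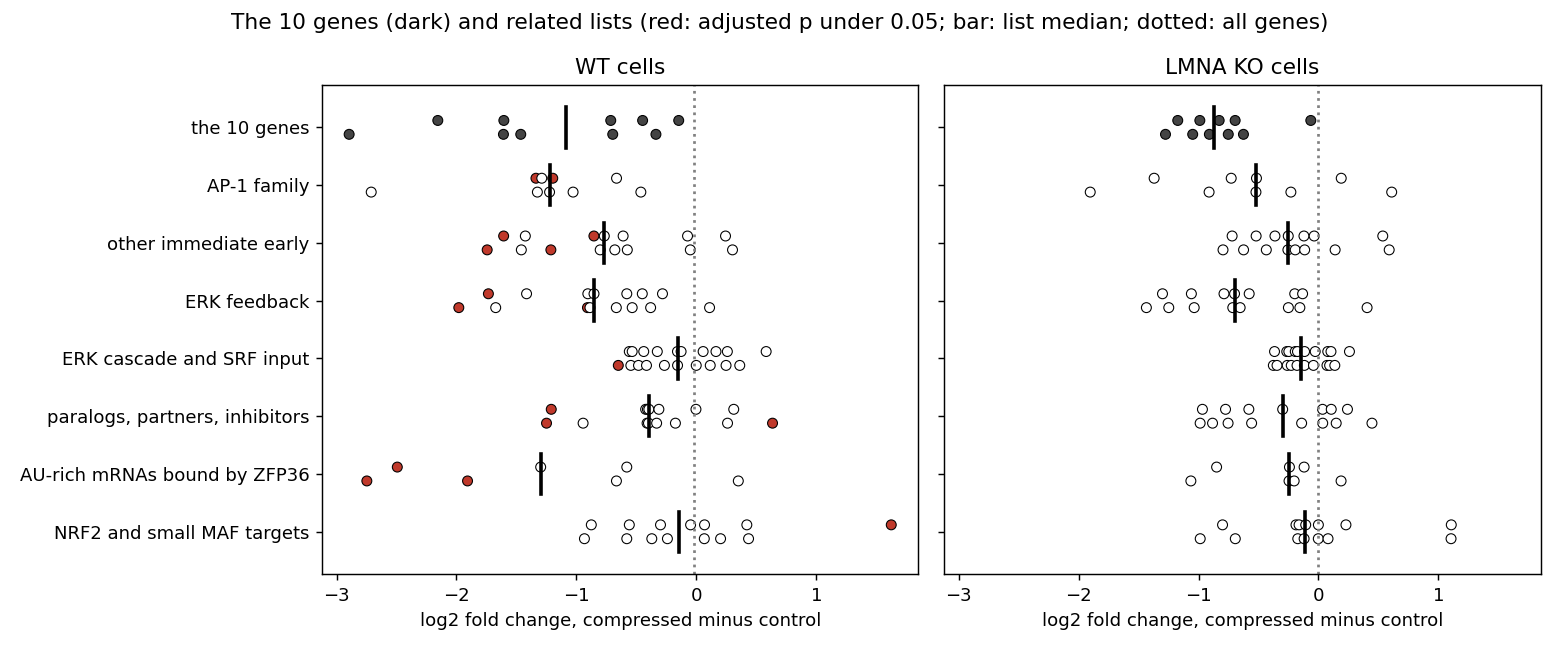
Log2 fold change between compressed and control libraries (x axis) of the 10 genes (dark) and of each tested gene in the 7 lists, in WT and KO cells, with a bar at each list's median, a dotted line at the median of all genes and red for an adjusted p under 0.05 by edgeR in the lists. The 17 red genes are all in WT cells, 15 of them lower, and the medians in WT cells run from -1.30 for AU-rich mRNAs to -0.14 for NRF2 and small MAF targets.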

How the data were processed

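The members and the gene lists were chosen with earlier results of these data known. The authors deposited whole-number gene counts and FPKM values per gene for 11 libraries. CanFam3.1, HISAT2 version 2.0.5, FastQC and CASAVA are named in the submitters' processing notes. The counting program, its annotation, its filters and its use of strand were all not given in the sources used here. Groups and replicate numbers came from the sample titles.

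Symbols were taken from the gene name column, or from the protein match in the description where no name was given. Where several loci carried a symbol, the named locus was used, or else the locus with the highest mean count. Counts were fitted in R 4.3.3 with edgeR 4.0.16 (filterByExpr over 4 groups, TMM scaling, 1 quasi-likelihood fit of 4 group means with 7 residual degrees of freedom), two-sided, with Benjamini-Hochberg adjustment over 13560 genes and a threshold of 0.05. Values with SE are log2 fold changes from that fit, and the tests were checked on simulated counts. Named are all 10 members, LMNA, their NR4A, EGR, CSRNP, ZFP36 and small MAF paralogs, and up to 4 genes per list with the smallest p. The values of PTGS2 and TXNRD1 by library were added after they were seen.

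Alternatives were no filter, a filter of at least 1 CPM in 3 libraries, RLE scaling, scaling by library size alone, a robust fit, DESeq2 1.42.0, limma 3.58.1 (trend) with a pseudocount of 1 or 0.1 on the log2 FPKM scale where FPKM reached 1 in 2 or more libraries, a replicate block, the groups compared alone, and leaving out each library of the groups compared. The no-overlap count in KO cells and the left-out libraries for single related genes were added after the data were seen. Promoter motifs were not analysed here.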

Additional observations from a re-analysis of the deposited data

How the results depend on the processing

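Among related genes, the 17 calls in WT cells became 28 with DESeq2, 26 with no filter and 0 with limma on either FPKM scale or with a replicate block, and 0 to 17 when each library was left out. Over the whole table the 848 WT calls became 2494 with DESeq2, 1754 with no filter and 2069 with the groups alone. They became 0 and 1 with limma and 0 with the block. Without WT control replicate 1 they were 1379, and without any other single WT library they were 0 or 1. The 46 and 107 calls between genotypes became 127 and 370 with DESeq2 and 15 and 53 with the block. Between KO and WT control cells the 1 call, NQO1, became 2 with DESeq2 and 0 with limma on log2(FPKM + 0.1), with the replicate block, with the groups compared alone and without any 1 library (0 to 0). Between KO and WT compressed cells the 1 call became 5 with DESeq2 and 0 to 5 with a library left out, and the 0 calls among the 10 genes became 1, NR4A1, with DESeq2 and with no filter, and 0 to 1 with a library left out. Deviations from group means correlated at -0.16, 0.27 and -0.00 between same-number libraries in WT cells and at -0.20 and -0.15 in KO cells. These values cannot decide whether replicate numbers pair the libraries, since deviations within groups of 2 or 3 libraries constrain each other. The block changed no other call among the 10 genes. The number with no overlap ran from 5 to 9 in WT cells and from 9 to 10 in KO cells. The share over all genes was not computed for these alternatives, so nothing is read from those ranges.

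Direction changed in the following values of the 10 genes. In KO compression NR4A1 ran from -0.93 to 0.24 with a library left out. Between KO and WT controls the leave-one-out ranges were -0.30 to 0.14 for IER2, -0.58 to 0.048 for IER5 and -0.35 to 0.0039 for KLF6. Between KO and WT compressed cells they were -0.11 to 0.18 for CSRNP1, -0.43 to 0.017 for IER2, -0.037 to 0.74 for IER3, -0.73 to 0.88 for IER5, -0.45 to 0.13 for KLF6, -0.30 to 0.14 for KLF10, -0.36 to 0.062 for MAFK and -0.11 to 0.26 for ZFP36. CSRNP1 was -0.026 with library size alone and -0.0075 with the replicate block, and IER5 was 0.10 and 0.16 with limma on log2(FPKM + 1) and log2(FPKM + 0.1), 0.11 with the block and 0.0019 with the groups alone. In the difference between genotypes the ranges were -0.37 to 0.11 for IER2, -0.39 to 1.23 for IER5 and -0.29 to 0.28 for KLF6, which was also -0.011 with library size alone, -0.066 and -0.072 with limma and -0.18 with the block. The causes were not tested. All 10 genes kept a negative WT value under each of the 16 alternatives. These refits reuse the libraries on which the list was chosen, so the kept sign is no independent support. The WT values of EGR1 and KLF10 nearly vanished with a library left out.

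With 2 or 3 libraries per group and 7 to 14 reads per library for NR4A1 in WT compressed cells, small differences are not detectable. Larger differences can also go uncalled. In KO cells IER5, MAFK and EGR1 stood at 0.407, 0.441 and 0.485 times control, each with an edgeR adjusted p of 0.773.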

Other observations

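NQO1, a quinone reductase and target of NRF2, was the only gene of the 7 related lists that differed between genotypes by edgeR with Benjamini-Hochberg adjustment. It was higher in KO cells by 0.74 ± 0.13 without compression (adjusted p 0.0321) and by 0.77 ± 0.12 after it (adjusted p 0.00905). The first call was lost when any 1 of its 5 libraries was left out, and the list genes held 0 calls after compression without WT compressed replicate 2. The libraries held 1273, 1421 and 1349 CPM in WT control, 1630, 1381 and 1640 in WT compressed, 2303 and 2193 in KO control and 2516, 2541 and 2849 in KO compressed cells, with no overlap between genotypes. TXNRD1, another NRF2 target, stood lower in KO cells, at 302 to 305 CPM against 366 to 440 in controls and 261 to 291 against 377 to 403 after compression, with adjusted p-values of 0.472 and 0.0886.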
